A study of Sus scrofa with 32 samples.

Results

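Gene expression in the livers of control pig fetuses at gestational day 70 was compared with that at day 50. The comparison rests on 8 of the 32 arrays of the study, namely every array labelled as a control at either day, 4 for day 70 and 4 for day 50. Set beside it are 4 runts at day 70 and 4 runts at day 50, the growth-restricted littermates of the controls, and the 4 control arrays at day 37 and 4 at day 110. Each array held total RNA of 1 fetal liver, labelled with the dye Cy3, and by the labels the 4 control livers of a day came from distinct gilts, each control with a runt littermate. All fetuses, controls included, grew in gilts that had lost 1 uterine horn and 1 ovary by surgery. The uterus was crowded as a result, and no fetus of the study came from an intact uterus.

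The fetal liver is a site of blood formation through much of gestation, and it holds erythroid, granulocytic and megakaryocytic cells between cords of immature hepatocytes. Hepatocytes secrete plasma proteins and lipoproteins early. They acquire most of the cytochromes P450, conjugating enzymes and nuclear receptors of drug and steroid metabolism later, around birth and after it. Macrophages, the Kupffer cells, settle in the sinusoids, and molecules that present antigen become more abundant as immune cells appear. In whole tissue, fewer cells of a type and less RNA per cell cannot be told apart.

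Every array had 45220 spots, of which 43803 were not controls. Between 51.28% and 66.815% of the spots were well above background on the day 70 control arrays, and between 60.562% and 69.388% on the day 50 arrays. Control day 70 replicate 4 stood apart, with the lowest share of the 32 arrays and 234 spots that the scanner software called outliers, against 2 to 14 on the other 7 arrays. Results that rest on it are given with and without it. Each day also had its own place on the slides, position 3 for day 70 and position 2 for day 50, so day and array position cannot be told apart. A level below is the log2 of a probe's signal minus the 75th percentile of its array, so 0 is the signal at that percentile and a difference of 1 is a doubling of signal. Levels of different probes are not compared with each other. The number of arrays, 4 a day, limits the precision of each value.

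The tissue was checked by genes that mark hepatocytes. All 7 of the measured liver identity genes were well above background on all 8 arrays, and 0 of 7 were called by the rule given below. Of the 7, 1 had an adjusted p under 0.05, APOA1, with a change under 2-fold. AFP (alpha-fetoprotein, NM_214317), the main fetal plasma protein, averaged 9.58 ± 0.45 at day 70 and 9.54 ± 0.32 at day 50 (SD, n = 4 each). ALB (albumin, NM_001005208) averaged 7.65 ± 0.81 and 7.57 ± 0.41 in the same order of days. Genes of the neighbouring organs that a dissection could include were in part detected. Of 12 pancreas genes on the array 7 were tested, and 6 of these were above background on at least 3 of 4 arrays of a day. For skeletal and cardiac muscle these numbers were 20, 13 and 12, and for gut, kidney, gonad and adrenal 23, 14 and 13. The median level of the pancreas list ran from -3.18 to -1.85 at day 70 and from -2.71 to -2.01 at day 50, that of the muscle list from 0.47 to 1.07 and from 0.10 to 0.76, and that of the third list from -2.78 to -1.59 and from -2.30 to -1.75, in the same order of days. The part of such tissue in the results was not tested. INS, GCG, SST, PNLIP and PNLIPRP1 of the pancreas, MYOD1, MYH2 and MYL2 of skeletal muscle, FABP2 of the gut, CYP17A1, STAR and NR5A1 of steroid-making glands and SLC12A1 of the kidney were above background on 0 of the 8 arrays.

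A feature is a probe, or the brightest probe of a gene where several carried the same symbol. It was called when the limma fit gave an adjusted p under 0.05 and the change was at least 2-fold. Of 28670 features tested, 830 rose (2.9%) and 1366 fell (4.76%) at day 70 against day 50, or 7.66% in all, so 37.8% of the called features were higher at day 70. Without day 70 replicate 4, 780 rose (2.72%) and 947 fell (3.3%). Scaled to each array's median in place of its 75th percentile, the fit called 1494 higher and 756 lower, of which 66.4% were higher, and the median change of all features moved to 0.14, against -0.05 as reported. The split also turned on dim probes. Among the 20629 features above background on all 8 arrays, 598 rose (2.9%) and 575 fell (2.79%). A gene symbol was carried by 1596 features, and among these 89 rose (5.58%) and 30 fell (1.88%), with a median change of 0.15. Without day 70 replicate 4 these were 74 (4.64%) and 22 (1.38%). All 4 day 70 arrays lay above all 4 day 50 arrays in 21.1% of the features with a symbol and below them in 6.45%, against 13.9% and 13.8% of all features. A fit of the 8 arrays alone gave 93 higher and 47 lower with the replicate number as a block, and 83 and 22 without the block. The block in the fit of all 32 arrays, added after seeing the data, gave 92 and 34. Of the called genes named below, the blocked fit of the 8 arrays ended 8 calls, of which 6 also ended in the unblocked fit of the 8 arrays and 0 ended with the block in the fit of 32 arrays. The rest of the text concerns features with a symbol, and 5.58% and 1.88% are the background against which the counts of called list members are read. By adjusted p under 0.05 alone, 12.5% of all features were higher and 12% lower at day 70. With a median of 0.15, most features with a symbol had changes above 0, and counts of signs in a list are read beside that.

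**Figure D1:**
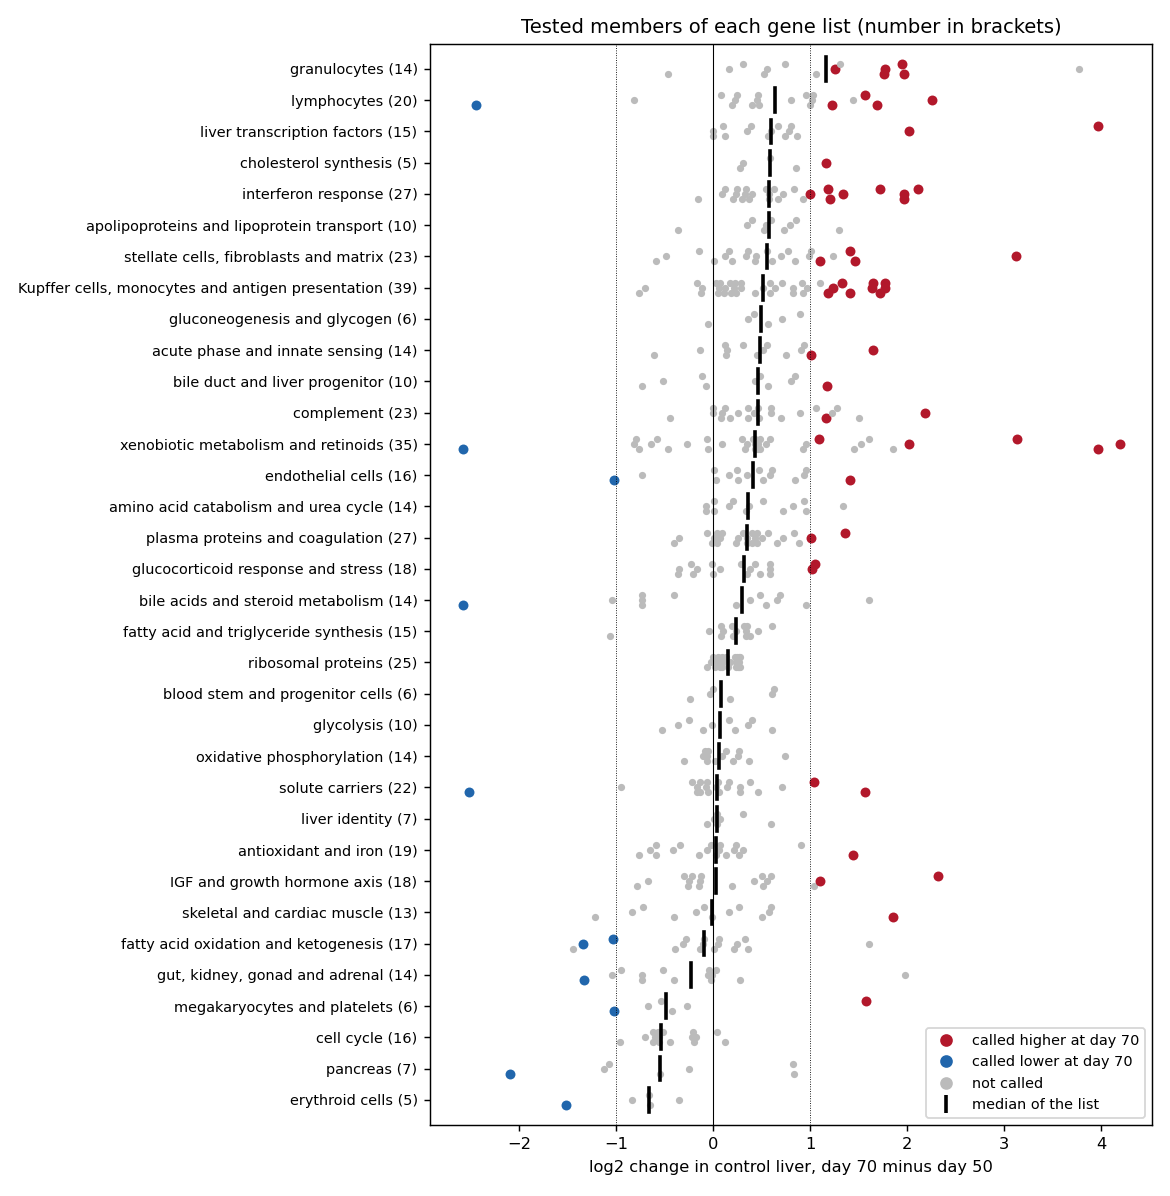
Log2 change, day 70 minus day 50 in control liver (x axis), of every tested member of 34 gene lists (rows, number of members in brackets). Red points rose, blue points fell, grey points were not called, black bars are list medians and dotted lines mark a 2-fold change. The granulocyte list has the highest median, 1.16, and the erythroid list the lowest, -0.66.

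The genes of nuclear receptors and of enzymes that handle foreign compounds included the 2 largest rises, those of CYP2C42 and NR1I2. CYP2C42 (NM_001167835), a pig cytochrome P450 of the CYP2C family, stood at 1.45, 1.99, 1.62 and 1.14 on the day 70 arrays (replicates 1 to 4), against -4.17, -1.04, -2.21 and -3.14 on the day 50 arrays. The lowest day 70 array lay above the highest day 50 array, and the day 50 arrays were spread more widely than the day 70 arrays. The log2 change was 4.19 (SE 0.92, adjusted p = 0.00197), an 18.3-fold rise. NR1I2 (NM_001038005), the pregnane X receptor that senses foreign compounds and steroids, stood at 0.95, 0.08, 0.57 and -1.35 at day 70, against -3.25, -4.84, -3.82 and -3.73 at day 50. Replicate 4 was the lowest of the day 70 arrays, and the days did not overlap. The change was 3.97 (SE 0.41, adjusted p = 8.98e-07), or 15.7-fold. NR1I3 (NM_001037996), the constitutive androstane receptor, a partner of NR1I2 in the control of drug-metabolising genes, read 1.8, 0.36, 0.73 and 0.25 at day 70, against -1.09, -0.86, -1.51 and -1.48 at day 50. It rose 4.05-fold (change 2.02, SE 0.4, adjusted p = 0.000879) without overlap.

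Further enzymes of the same list moved less evenly. GSTA1 (NM_214389), a glutathione transferase, stood at -1.11, -2.05, -0.4 and 0.91 at day 70, against -3.08, -3.49, -5.18 and -3.41 at day 50. It rose by 3.13 (SE 0.94, adjusted p = 0.0171), and the call ended without day 50 replicate 3 (adjusted p = 0.0614) or day 70 replicate 4 (0.0677). CYP2D25 (NM_214394), a P450 that hydroxylates vitamin D in the pig, rose by 1.09 (SE 0.31, adjusted p = 0.0115), and its change was under 2-fold without day 70 replicate 4 (0.95) and at the threshold without day 70 replicate 3 (1.00). SULT1E1 (NM_213992), which attaches sulfate to oestrogens, ran the other way. Its levels were -1.53, -1.17, -2.28 and -4.23 at day 70, against 1.15, -0.37, -0.91 and 1.23 at day 50. It fell, with a change of -2.58 (SE 0.71, adjusted p = 0.0106), and the call ended without day 70 replicate 4, the lowest array (change -1.94, adjusted p = 0.0573), and in the blocked fit of the 8 arrays (0.0664). Of 35 tested members of the xenobiotic and retinoid list, 5 rose and 1 fell, with a median change of 0.43, against 3 and 0 without day 70 replicate 4. CYP1A1 (1.85, adjusted p = 0.0949) and CYP4A21 (1.61, adjusted p = 0.0636) were not called, though both were in the blocked fit of the 8 arrays (adjusted p = 0.0249 and 0.0138). CYP1A1 was also called in that fit without the block (0.0116) and CYP4A21 was not (0.222). CYP2E1 ranged from -1.32 to 6.29 at day 70 and from -3.85 to 3.77 at day 50, a spread over fetuses that left its change of 1.52 uncalled (adjusted p = 0.581). With a normexp background correction the calls of CYP2C42, NR1I2, NR1I3 and SULT1E1 held and those of GSTA1 and CYP2D25 did not. Probes of P450 families with near-identical members can share signal, so the CYP2C values are uncertain in that respect.

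**Figure D2:**
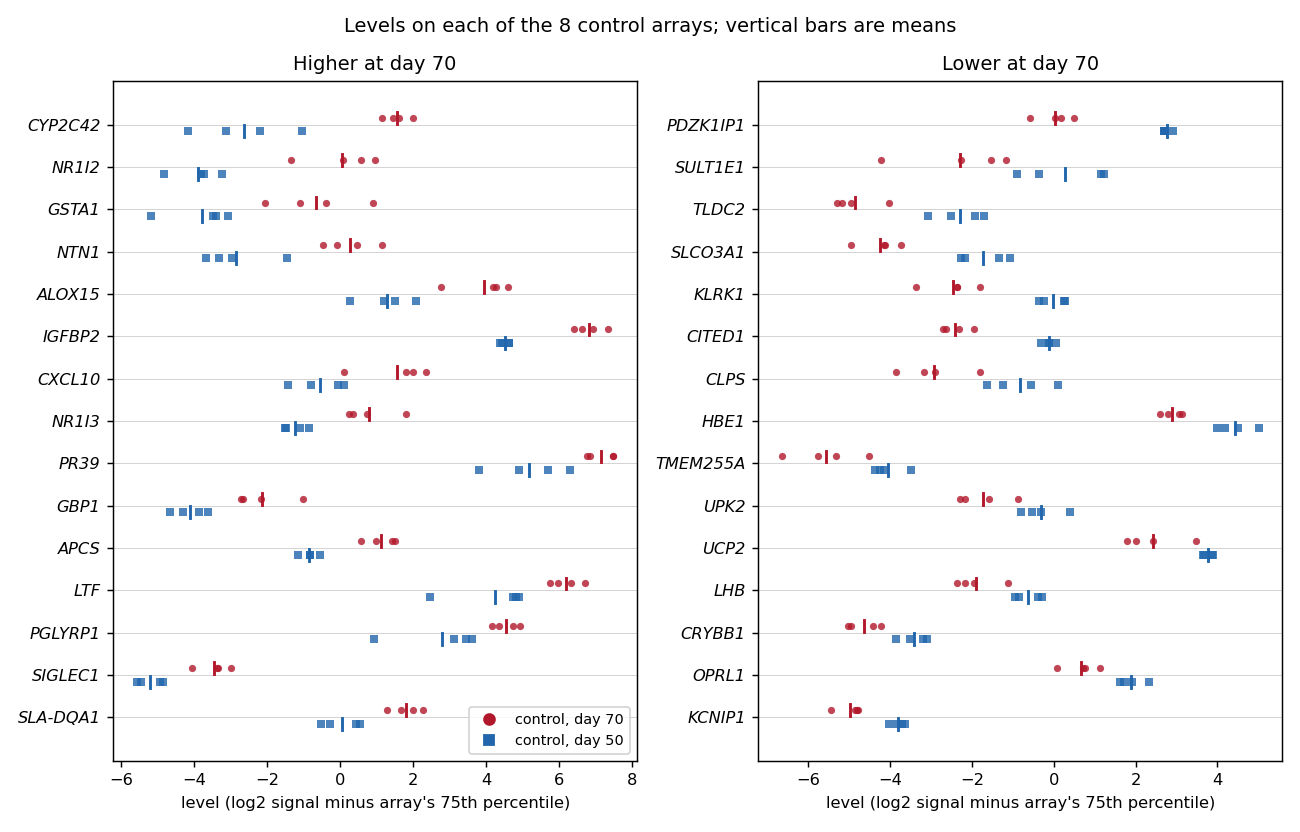
Level (log2 signal minus the array's 75th percentile, x axis) on each of the 4 day 70 arrays (red circles) and 4 day 50 arrays (blue squares) for the 15 largest rises (left) and 15 largest falls (right) among named genes, with vertical bars at the means. By the rule that chose them the days do not overlap; CYP2C42 and SULT1E1 show wide spreads, IGFBP2 and PDZK1IP1 narrow ones.

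Among transcription factors of the liver, NR1I2 and NR1I3 were the 2 of 15 that rose and 0 fell. The median change was 0.60, and 9 of the 15 reached an adjusted p under 0.05, all with higher levels at day 70. By adjusted p alone 12.5% of all features were higher, and the share among features with a symbol, which were called higher more often, was not computed. ONECUT1 (HNF6), a hepatocyte and bile duct factor, read 0.7, 0.39, 0.35 and -0.23 at day 70, against -0.46, -0.4, -0.41 and -0.72 at day 50. Its change of 0.80 (adjusted p = 0.00267) was under 2-fold. GATA4 (0.78, adjusted p = 0.0168) and NR1H3, a sterol receptor (0.60, adjusted p = 0.00201), were likewise below the 2-fold threshold. HNF4A, a master regulator of hepatocytes, had a change of 0.39 (adjusted p = 0.234).

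Most secreted plasma proteins stayed uncalled, and 2 of 27 rose. SERPINA7 (NM_214058), which carries thyroid hormone in blood, had tight replicates, 6.92, 6.89, 6.71 and 6.59 at day 70 and 5.5, 5.3, 5.18 and 5.66 at day 50. Its rise of 1.36 (SE 0.18, adjusted p = 1.4e-05) is 2.57-fold. ITIH4 (NM_001001537), an inter-alpha-trypsin inhibitor chain and acute phase protein in pigs, rose by 1.01 (SE 0.25, adjusted p = 0.0049), which fell under 2-fold without day 50 replicate 4 (0.93) or day 70 replicate 4 (0.90). Coagulation factors F10 (0.83, adjusted p = 0.000145) and F12 (0.72, adjusted p = 0.00572) were below 2-fold. A second probe of vitronectin, VTN, was called at 1.25 (adjusted p = 9.22e-06) and one of ITIH2 at 1.04 (adjusted p = 0.00202), while the brightest probes of these genes were not, at 0.66 and 0.35. The list's median was 0.35.

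Complement and innate sensors held 4 called genes. C6 (NM_001097449), which helps form the pore that complement punches into membranes, was dim, with 3 of 4 day 70 arrays and 2 of 4 day 50 arrays above background. Its levels were -2.72, -2.8, -3.35 and -4.05, against -7.49, -4.49, -4.77 and -4.9, and the change of 2.18 (adjusted p = 0.0185) was not called without day 50 replicate 1 (1.49, adjusted p = 0.101), in the blocked fit of the 8 arrays (adjusted p = 0.0667), or by its other probe (0.70). MBL1 (NM_001007194), a mannose-binding lectin that starts the complement cascade, rose by 1.16 (SE 0.3, adjusted p = 0.00695), and its change was under 2-fold without day 50 replicate 3 (0.88). CD14 (NM_001097445), the receptor for bacterial lipopolysaccharide made by macrophages and hepatocytes, read 2.95, 3.6, 2.75 and 2.84 at day 70, against 1.71, 1.2, 0.88 and 1.74 at day 50. The groups did not overlap, and the rise of 1.65 (SE 0.23, adjusted p = 2.61e-05) is 3.14-fold. Of 23 complement members 2 rose and 0 fell (median 0.46), and 21 of 23 had changes above 0. APCS (NM_213887), serum amyloid P, a pentraxin that binds bacterial and apoptotic surfaces, rose 3.89-fold. Its levels were 0.97, 1.5, 1.43 and 0.56 at day 70 and -0.84, -0.82, -1.16 and -0.55 at day 50 (change 1.96, SE 0.52, adjusted p = 0.00795).

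Lipoprotein and sterol genes had small, well replicated changes. SQLE, a regulated enzyme of cholesterol synthesis, had a change of 0.85 (adjusted p = 0.000851), just short of 2-fold with no overlap between days, and CYP51 had 0.58 (adjusted p = 0.00353). Another probe of SQLE had 0.29 (adjusted p = 0.109), and another of CYP51 had 0.48 (adjusted p = 0.102). All 5 measured cholesterol synthesis genes lay above 0 (median 0.58). Of 10 apolipoproteins and lipoprotein genes 0 were called, though 7 had an adjusted p under 0.05, each with a higher level at day 70. The share of all features that were higher by adjusted p alone was 12.5%. Features with a symbol were called higher more often than all features, and their own share by adjusted p alone was not computed. MTTP, which loads triglyceride onto nascent lipoproteins, read 5.18, 5.05, 5.13 and 5 at day 70, against 4.65, 4.45, 4.65 and 4.53 at day 50 (change 0.52, adjusted p = 0.00957). APOC3 (0.73, adjusted p = 0.00756), APOE (0.85, adjusted p = 0.0183) and APOA1 (0.59, adjusted p = 0.0438) were in the same range. PLTP, which transfers phospholipid between lipoproteins, had 0.79 (adjusted p = 0.0111) and was called without day 70 replicate 4 (1.05).

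Fuel metabolism held 2 falls, both in the list of fatty acid oxidation and ketone bodies (2 of 17, median -0.10). UCP2 (NM_214289), a mitochondrial carrier abundant in blood cells and macrophages, read 3.49, 2.01, 2.42 and 1.8 at day 70, against 3.65, 3.87, 3.67 and 3.89 at day 50. Replicate 1 of day 70 lay close to the day 50 arrays and the other three well below. It fell, with a change of -1.34 (SE 0.3, adjusted p = 0.00229). OXCT1 (NM_213938), the enzyme that lets extrahepatic cells burn ketone bodies and that adult hepatocytes lack, read 2.4, 1.43, 1.79 and 2.12 at day 70, against 2.85, 3.00, 3.02 and 3.00 at day 50. It fell by 1.03 (SE 0.24, adjusted p = 0.00348), and the change was under 2-fold without day 70 replicate 2 (-0.86) or replicate 3 (-0.98), or when scaled to the array median (-0.84).

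Gluconeogenesis gave 0 calls among 6 genes. FBP1, which makes fructose 6-phosphate on the way to glucose, read 7.1, 6.75, 6.35 and 6.01 at day 70, against 5.73, 5.72, 5.32 and 5.88 at day 50 (change 0.89, adjusted p = 0.00444), and was called without day 70 replicate 4 (1.07). UGP2, which makes the sugar donor for glycogen, had 0.56 (adjusted p = 0.00876), and the glucose transporter SLC2A2 had 0.71 (adjusted p = 0.0107). In amino acid catabolism and the urea cycle 0 of 14 were called. NAGS, which makes the activator of the urea cycle, had a change of 0.94 (adjusted p = 6.01e-05). It was called without day 70 replicate 4 (1.05), and a second probe of it was called at 1.16. SAT1, of polyamine breakdown, had 0.96 (adjusted p = 8.03e-05), and ARG1 had 0.16 (adjusted p = 0.476). Glycolysis (10 genes, median 0.07), oxidative phosphorylation (14, median 0.06), fatty acid and triglyceride synthesis (15, median 0.23) and ribosomal proteins (25, median 0.15) held 0 calls in either direction.

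Of the IGF binding proteins IGFBP2 and IGFBP3 rose, while IGFBP5 (0.55), IGFBP6 (0.42), their partner IGFALS (-0.3) and the growth factors themselves were not called. IGFBP2 (NM_214003), a major fetal binding protein for insulin-like growth factors, read 6.41, 6.94, 7.34 and 6.63 at day 70, against 4.63, 4.43, 4.38 and 4.62 at day 50. The days were far apart next to the spread within each, and the rise was 4.98-fold (change 2.32, SE 0.46, adjusted p = 0.000826). IGFBP3 (NM_001005156) rose by 1.1 (SE 0.22, adjusted p = 0.000958), with arrays between 1.00 and 1.48 at day 70 and between -0.01 and 0.22 at day 50. IGF2 (0.19, adjusted p = 0.508) and IGF1 (-0.25, adjusted p = 0.451) were not called. NR3C1 (NM_001008481), the glucocorticoid receptor, read 1.3, 1.36, 1.52 and 1.23 at day 70, against 0.35, 0.29, 0.16 and 0.51 at day 50. Its rise of 1.02 (SE 0.16, adjusted p = 0.000136) stood close to the 2-fold threshold and fell under it without replicate 3 of either day (0.97 in both cases) and in the authors' value table (0.95). DIO1 (NM_001001627), the liver enzyme that activates thyroid hormone, was called at 1.55 (adjusted p = 0.0373), and the call ended without any of 5 of the 8 arrays (adjusted p between 0.055 and 0.131). DIO1 was picked out after its values were seen. Of 18 genes of the IGF axis 2 rose and 0 fell (median 0.03), and of 18 of the glucocorticoid and stress list 2 rose, NR3C1 and VEGFA, and 0 fell (median 0.32).

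Genes of antigen presentation made up 6 of the 9 rises in a list shared with macrophages. Of 39 tested members of the Kupffer cell, monocyte and antigen presentation list 9 rose and 0 fell, with a median of 0.51; without day 70 replicate 4, 6 rose. SLA-DRA (NM_001113706), a chain of the pig MHC class II molecule that displays peptides to helper T cells, read 2.35, 2.14, 2.13 and 2.82 at day 70, against -0.04, 0.89, 0.49 and 1.2 at day 50. SLA-DQA1 (NM_001114062), another class II chain, read 2.00, 1.66, 1.29 and 2.28 at day 70, against -0.52, 0.43, -0.29 and 0.55 at day 50. Neither gene overlapped between the days. SLA-DRA rose by 1.72 (SE 0.31, adjusted p = 0.000378), SLA-DQA1 by 1.77 (SE 0.33, adjusted p = 0.000535) and SLA-DQB1 by 1.41 (adjusted p = 0.000925). The invariant chain CD74, which escorts class II molecules, was not called on its brightest probe (0.82, adjusted p = 0.0135) and was called on another (1.41, adjusted p = 0.000176).

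Of 5 MHC class I genes SLA-2 and SLA-3 rose, and SLA-6 (1.1, adjusted p = 0.129), SLA-7 (0.07, adjusted p = 0.936) and SLA-8 (0.93, adjusted p = 0.0259) were not called. SLA-8 was called without day 70 replicate 1 (1.09) and when scaled to the array median (1.11). SLA-2 (NM_001113702) read 3.09, 3.33, 3.27 and 3.27 at day 70, against 1.69, 1.91, 1.26 and 1.55 at day 50 (change 1.64, SE 0.32, adjusted p = 0.000732). The day 70 arrays were close together and clear of every day 50 array. SLA-3 rose by 1.23 (adjusted p = 0.0082), and TAP1, which pumps peptides to class I molecules, by 1.18 (adjusted p = 0.00641), a change under 2-fold without day 70 replicate 4 (0.76) and uncalled in the blocked fit of the 8 arrays (adjusted p = 0.0701). Class I probes of near-identical genes can share signal, and another probe of SLA-3 had 2.44 without passing (adjusted p = 0.2). Macrophage genes were mixed. SIGLEC1 (NM_214346), a sialic acid receptor of tissue macrophages, was above background on 4 of 4 day 70 arrays and 0 of 4 day 50 arrays, and was at least 3.1-fold higher at day 70 (adjusted p = 0.0169; 0.0508 without day 70 replicate 4). LGALS3 (galectin-3) rose by 1.33 (adjusted p = 0.0293), a call that ended without day 50 replicates 1 or 3 or day 70 replicate 4 (adjusted p between 0.0712 and 0.114). CD163, the haemoglobin scavenger receptor of macrophages, had a change of 0.18 (adjusted p = 0.613), and C1QA had 0.17 (adjusted p = 0.527).

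Genes of the interferon response included 8 that rose. This list of 27 tested genes was put together after the values were seen, so its counts describe and do not test. Beside the 8, TAP1 among them, 0 fell, 26 of 27 changes were above 0 and the median was 0.57; without day 70 replicate 4, 5 rose and the median was 0.48. CXCL10 (NM_001008691), a chemokine that attracts T cells, read 0.11, 1.81, 1.99 and 2.34 at day 70, against -1.43, 0.11, -0.06 and -0.81 at day 50. Replicate 1 of day 70 and replicate 2 of day 50 stood at the same rounded level, and the other three day 70 arrays were clear of the day 50 arrays (change 2.11, SE 0.42, adjusted p = 0.000903). GBP1 (NM_001128473), an interferon-induced GTPase, rose by 1.97 (SE 0.49, adjusted p = 0.005). RSAD2 (viperin), an antiviral enzyme, was above background on 2 of 4 day 70 arrays and 0 of 4 day 50 arrays and was at least 1.48-fold higher (adjusted p = 0.00816). IRF1, a transcription factor of interferon signalling, read -0.11, -0.41, -0.07 and 0.34 at day 70, against -1.31, -1.21, -1.6 and -0.91 at day 50 (change 1.20, SE 0.19, adjusted p = 0.000141).

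For MX1 (NM_214061), an antiviral GTPase, day 70 replicate 1 did not join the others. Its levels were 1.51, 3.19, 3.59 and 3.62 at day 70, against 1.52, 1.8, 1.45 and 1.77 at day 50, so the days overlapped. The change of 1.34 (adjusted p = 0.0177) lost its call without day 70 replicate 3 (adjusted p = 0.0665) or 4 (0.0678) and in the blocked fit of the 8 arrays (0.0522). OAS2, an antiviral synthetase, was called at 1.00 (adjusted p = 0.0382) and was not without 5 of the 8 arrays in turn (adjusted p between 0.0551 and 0.186). On day 70 replicate 1 the median level over the list was -0.11, against 0.24, 0.84 and 0.70 on replicates 2 to 4 and -0.63, 0.00, -0.06 and -0.81 on the day 50 arrays.

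**Figure D3:**
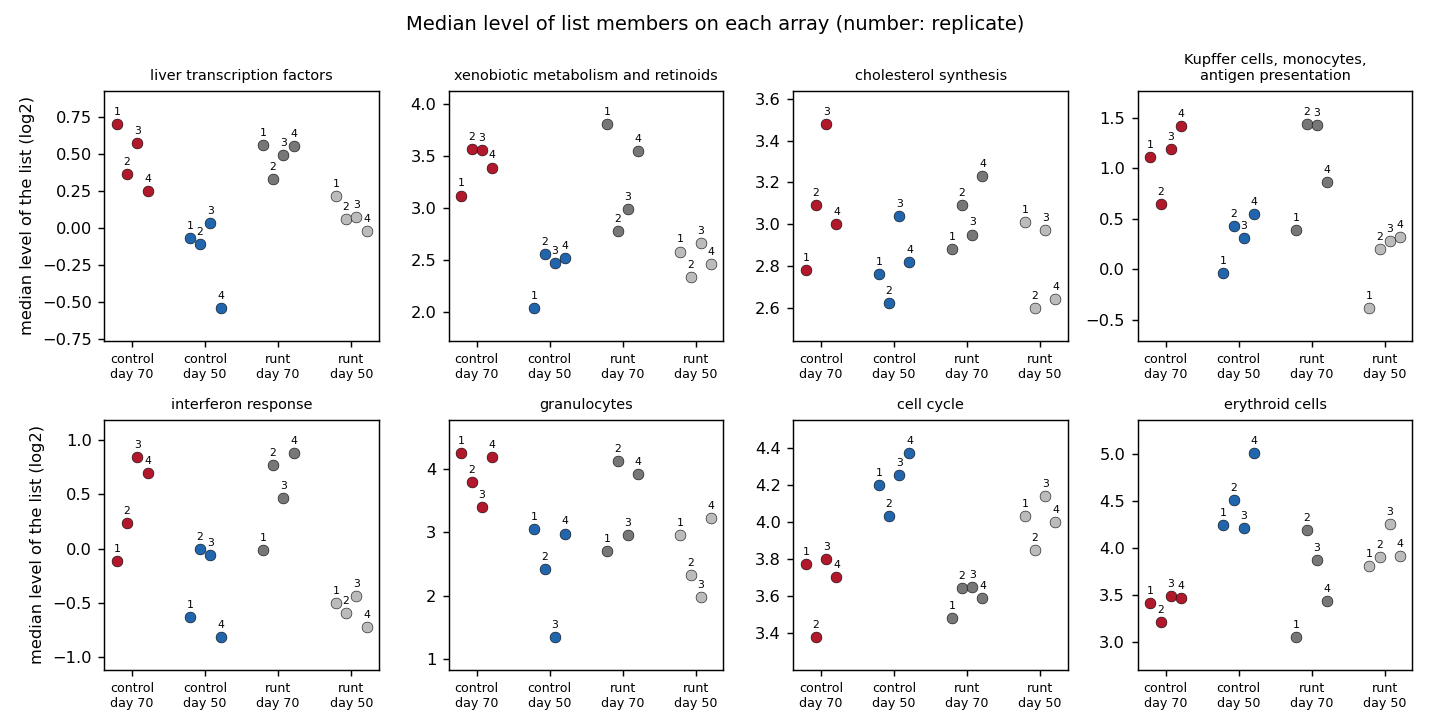
Median level over the tested members of 8 gene lists (panels, y axis, log2 signal minus the array's 75th percentile) on each array of control day 70 (red), control day 50 (blue), runt day 70 (dark grey) and runt day 50 (light grey), with replicate numbers. In controls the days do not overlap for transcription factors, xenobiotic metabolism, antigen presentation, granulocytes, cell cycle and erythroid cells, and overlap for cholesterol synthesis and interferon response.

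Genes of granulocytes, granule proteins of neutrophils among them, gave 5 rises and 0 falls among 14 genes, the highest list median at 1.16. PR39 (NM_214450), a pig cathelicidin that kills bacteria, read 6.77, 6.85, 7.49 and 7.47 at day 70, against 4.91, 5.69, 3.8 and 6.3 at day 50. LTF (lactoferrin, NM_214362) read 6.7, 5.75, 5.97 and 6.34 at day 70, against 4.91, 4.74, 2.47 and 4.83 at day 50. In both genes day 50 replicate 3 was the lowest array. The changes were 1.97 for PR39 (SE 0.49, adjusted p = 0.0052) and 1.95 for LTF (SE 0.6, adjusted p = 0.0191). PGLYRP1, a bactericidal peptidoglycan receptor (1.77, adjusted p = 0.0281), MMP9, a granule gelatinase (1.76, adjusted p = 0.0201), and NCF1, a subunit of the NADPH oxidase (1.26, adjusted p = 0.0178), rose too.

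These granulocyte calls leaned on single arrays. Without day 50 replicate 3, LTF had 1.36 (adjusted p = 0.0962), PGLYRP1 1.15 (adjusted p = 0.138), MMP9 1.29 (adjusted p = 0.0932) and NCF1 0.95 (adjusted p = 0.0819). Without day 70 replicate 4, PGLYRP1 (adjusted p = 0.0715), MMP9 (0.0667) and NCF1 (0.0562) were not called, and 2 of the 14 rose; PGLYRP1 also ended without day 70 replicate 1 (0.0534). PR39 was called without any single array and with normexp. Probes of cathelicidins can share signal among family members, and PMAP-36, another cathelicidin, had a change of 3.77 that did not pass (adjusted p = 0.322). LYZ had -0.47 (adjusted p = 0.569). The median level of the list was 4.25, 3.79, 3.40 and 4.19 at day 70 and 3.05, 2.42, 1.35 and 2.98 at day 50. LTF, PGLYRP1, MMP9 and NCF1 were not called with normexp.

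Lymphocyte genes gave 4 rises and 1 fall among 20 (median 0.64). CD3G (NM_001008686), a chain of the T cell receptor complex, cleared background on 2 of 4 day 70 arrays and 0 of 4 day 50 arrays. Its levels were -4.92, -4.81, -4.71 and -5.82 at day 70, against -7.64, -7.51, -6.84 and -7.3 at day 50, a rise of at least 1.05-fold (adjusted p = 3.7e-06), and CD3D was above background on 0 of the 8. VPREB1 (NM_001075117), part of the surrogate light chain that marks B cell precursors, was above background throughout. It read -0.74, -0.81, -1.32 and -0.39 at day 70, against -2.39, -2.21, -3.03 and -2.4 at day 50, and rose by 1.69 (SE 0.46, adjusted p = 0.00876). CD79A, a signalling chain of the B cell receptor, rose by 1.22 (adjusted p = 0.0146; 0.0628 without day 70 replicate 4). CD247, the zeta chain of the T cell receptor, rose by 1.56 (adjusted p = 0.00136), with day 70 replicate 4 at 0.79 and the other three between -1.19 and -1.13; its other probe had 0.55 and was not called.

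The fall in that list was KLRK1 (NM_213813), or NKG2D, an activating receptor of natural killer cells. Its levels were -2.36, -3.37, -2.36 and -1.8 at day 70, against -0.35, 0.27, 0.25 and -0.24 at day 50. The days were well apart, and KLRK1 fell, with a change of -2.45 (SE 0.27, adjusted p = 1.63e-06). HCST (DAP10), the adaptor through which KLRK1 signals, was called higher, at 1.25 (adjusted p = 0.023), and the call ended without day 50 replicate 3 (0.0822), day 70 replicate 1 (0.0743) or day 70 replicate 4 (0.0638). HCST was picked out for its partnership with KLRK1 after the values were seen.

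Erythroid genes held 1 fall and cell cycle genes none that was called. HBE1 (NM_214447), embryonic epsilon globin, read 3.14, 2.79, 3.06 and 2.61 at day 70, against 4.18, 4.51, 4.00 and 5.01 at day 50. It fell, with a change of -1.52 (SE 0.34, adjusted p = 0.00239), and globin probes can share signal among family members. It was 1 of 5 erythroid genes tested, of which 0 rose and all 5 had changes below 0 (median -0.66). EPOR, the erythropoietin receptor, read 3.42, 3.22, 3.49 and 3.47 at day 70, against 4.25, 4.04, 4.21 and 4.46 at day 50 (change -0.84, adjusted p = 0.0401). The transferrin receptor TFRC had -0.65 (adjusted p = 0.106). Of 16 cell cycle genes 0 were called, 14 were below 0 and the median was -0.54, against 0.15 over all features with a symbol. AURKA, a kinase of the mitotic spindle, had -0.96 (adjusted p = 0.00471), CCNB1, the cyclin of mitotic entry, -0.70 (adjusted p = 0.0259), and CDK4, a kinase of the G1 phase, -0.62 (adjusted p = 0.01). None of these 3 reached 2-fold. The days did not overlap for any of them, as in 6.45% of features with a symbol that lay lower at day 70. Another probe of CDK4 had -0.27 (adjusted p = 0.145), and another of CCNB1 had -0.82 (adjusted p = 0.0431). The cell cycle level on the arrays was 3.77, 3.38, 3.80 and 3.70 at day 70 and 4.20, 4.03, 4.25 and 4.37 at day 50.

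Platelet genes split. SELP (P-selectin), stored in the granules of platelets and endothelium, fell by 1.02 (SE 0.26, adjusted p = 0.00561), and its change was under 2-fold without day 50 replicate 2 (-0.89), day 70 replicate 1 or day 70 replicate 4 (both -0.96) and when scaled to the array median (-0.83). ITGA2B, the platelet integrin, had -0.67 (adjusted p = 0.00294). TBXAS1, thromboxane synthase, which macrophages also make, rose by 1.57 (adjusted p = 0.00596), with 3 of 4 day 70 arrays and 1 of 4 day 50 arrays above background. Of 6 megakaryocyte and platelet genes 1 rose and 1 fell (median -0.49), and 5 of the 6 had changes below 0. The median level of this list was 2.22, 2.23, 2.57 and 2.25 at day 70 and 3.15, 3.28, 3.14 and 3.08 at day 50. Of 6 blood stem and progenitor genes 0 were called, among them CD34 (0.63, adjusted p = 0.0796) and CXCL12, the stromal chemokine that retains progenitors (0.61, adjusted p = 0.104).

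Of 23 stellate cell, fibroblast and matrix genes 4 rose, IGFBP3 among them, and 0 fell (median 0.55), against 3 and a median of 0.34 without day 70 replicate 4. NTN1 (NM_001044548), netrin-1, a secreted guidance protein of stromal and vascular cells, read 0.45, -0.08, -0.46 and 1.14 at day 70, against -3.69, -2.96, -3.31 and -1.45 at day 50. The days did not overlap, and the rise was 8.68-fold (change 3.12, SE 0.51, adjusted p = 0.000155). RGS5, a pericyte marker, rose by 1.46 (adjusted p = 0.0161; 0.0691 without day 50 replicate 1). COL5A1, a fibrillar collagen, was called at 1.41 (adjusted p = 0.0159) on day 70 levels that ran from -1.91 to 1.39, against -2.01 to -1.58 at day 50, and was not called without day 70 replicate 2 (0.82, adjusted p = 0.0844) or 4 (adjusted p = 0.0524) or in the blocked fit of the 8 arrays (adjusted p = 0.0796). ACE, the angiotensin-converting enzyme of endothelium, cleared background on 3 of 4 day 70 arrays and 0 of 4 day 50 arrays and was at least 1.96-fold higher (adjusted p = 0.00212). VEGFA, which drives vessel growth, rose by 1.05 (adjusted p = 0.00816), under 2-fold without day 50 replicate 3 (0.91), day 70 replicate 1 (0.89) or day 70 replicate 2 (0.90), and its other probe had 0.68. PECAM1, a marker of all endothelium, had 0.47 (adjusted p = 0.0541). EPCAM (NM_214419), an adhesion molecule of bile duct and progenitor cells, read 1.53, 1.19, 1.52 and 1.43 at day 70, against 0.45, 0.1, 0.04 and 0.41 at day 50 (change 1.17, SE 0.25, adjusted p = 0.00154), with other probes at 0.96 and 0.97. SOX9, a bile duct factor, had -0.52 (adjusted p = 0.35).

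The largest falls included several genes with no textbook role in hepatocytes. PDZK1IP1 (NM_001001769), or MAP17, a small membrane protein that partners PDZ scaffolds, read -0.58, 0.18, 0.49 and 0.04 at day 70, against 2.7, 2.69, 2.91 and 2.73 at day 50. The day 50 arrays were close together and far above every day 70 array, and the change of -2.72 (SE 0.5, adjusted p = 0.000426) is a 6.61-fold fall. CITED1 (NM_001037964), a coactivator of developmental transcription, read -2.32, -1.96, -2.72 and -2.64 at day 70, against 0.06, -0.3, -0.12 and -0.11 at day 50, with tight replicates at day 50 as well. It fell, with a change of -2.29 (SE 0.43, adjusted p = 0.000516). SLCO3A1 (XM_001924347), an organic anion transporter, read -4.12, -3.74, -4.96 and -4.14 at day 70, against -1.07, -2.28, -1.35 and -2.17 at day 50. On 2 of the 4 day 70 arrays and all 4 day 50 arrays the probe was above background, and SLCO3A1 fell, with a change of -2.52 (SE 0.72, adjusted p = 0.0128). TLDC2 cleared background on 0 of 4 day 70 arrays and 4 of 4 day 50 arrays and was at least 5.06-fold lower (adjusted p = 0.000325).

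CLPS (NM_214203), colipase of the exocrine pancreas, fell, with a change of -2.1 (SE 0.54, adjusted p = 0.00618). Its levels were -1.8, -2.9, -3.18 and -3.85 at day 70, against 0.1, -0.55, -1.24 and -1.63 at day 50. It was the 1 called gene among 7 tested pancreas genes, whose other members ran from -1.13 to 0.83, and pancreatic lipase (PNLIP) was at background on all 8 arrays. UPK2, a urothelial plaque protein, fell by 1.42 (adjusted p = 0.0139; 0.057 without day 50 replicate 1). The calls of TMEM255A (-1.5, adjusted p = 0.0264), CRYBB1 (-1.24, adjusted p = 0.0271) and KCNIP1 (-1.18, adjusted p = 0.0271), all dim at day 70 with 1 or 2 of 4 arrays above background, each ended without any of 3 or 4 single arrays (adjusted p between 0.0502 and 0.112). LHB (-1.29, adjusted p = 0.00202) and OPRL1 (-1.23, adjusted p = 0.00169) fell on 1 probe each, while another probe of each had -0.21 and -0.34. INHA, inhibin alpha, fell by 1.33 (adjusted p = 0.0206), a call that ended without day 50 replicate 1 or day 70 replicates 3 or 4 (adjusted p between 0.0563 and 0.109). In the muscle list TNNI2, fast troponin I, was called at 1.85 (adjusted p = 0.0106) with overlapping days, and was not without day 50 replicate 2 (adjusted p = 0.0614) or in the blocked fit of the 8 arrays (adjusted p = 0.0831).

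Several further rises belonged to no list. ALOX15 (NM_213931), a lipoxygenase of eosinophils and macrophages, read 4.26, 2.75, 4.18 and 4.59 at day 70, against 1.5, 2.09, 0.28 and 1.2 at day 50, and rose 6.39-fold (change 2.68, SE 0.55, adjusted p = 0.00123). The genes that follow were picked out after their values were seen. AQP9, the hepatocyte channel for glycerol, read -0.03, 0.37, -0.58 and -0.16 at day 70, against -1.5, -1.46, -2.4 and -1.76 at day 50 (change 1.68, SE 0.25, adjusted p = 6.95e-05). NAB2, a corepressor of EGR factors, rose by 1.51 (adjusted p = 6.5e-05), OCLN, a tight junction protein, by 1.29 (adjusted p = 6.58e-05), CIDEC, a lipid droplet protein, by 1.33 (adjusted p = 0.000256), and P4HA1, a collagen hydroxylase, by 1.26 (adjusted p = 0.00103). CCL20, a chemokine for immature dendritic and B cells, rose by 1.64 (adjusted p = 0.00752). For these 6 genes no single array ended the call when left out. LEAP2, a liver antimicrobial peptide, had widely spread levels, -1.75, 2.36, 1.46 and -3.35 at day 70, against -2.29, -4.07, -5.33 and -5.36 at day 50. Its change of 3.94 (SE 1.14, adjusted p = 0.0141) was not called without day 70 replicate 2 (adjusted p = 0.0618) or 3 (0.0554) or in the blocked fit of the 8 arrays (0.0643), and the days overlapped. STEAP4, an iron and copper reductase (1.44, adjusted p = 0.0138; 0.072 without day 50 replicate 3), SLC7A2, a cationic amino acid transporter (1.56, adjusted p = 0.01; 0.0533 without day 50 replicate 3 and 0.065 in the blocked fit of the 8 arrays), and SLC39A7, a zinc transporter (1.04, adjusted p = 0.00202, 0.95 to 0.98 without 3 single arrays), rose in the lists of iron genes and solute carriers.

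Slides 1 to 3 and slides 4 to 9 formed 2 sets, each with 2 arrays of each day. Within each set all 76 called genes named here had the sign they had over all arrays. These genes were called on the same arrays, so the shared sign is no separate support. Where the days do not overlap, the sign within a set is fixed in advance. With 2 arrays against 2, 1 feature was called within slides 1 to 3, and 310 higher and 192 lower within slides 4 to 9. NR1I2 changed by 3.38 within slides 1 to 3 and 4.56 within slides 4 to 9, CYP2C42 by 4.06 and 4.33, IGFBP2 by 2.49 and 2.15 and SLA-DRA by 1.63 and 1.82 in the same order. PR39 had 2.43 and 1.51, KLRK1 -2.08 and -2.82 and HBE1 -1.67 and -1.38. LTF had 2.5 and 1.4 and CXCL10 2.6 and 1.62. With a normexp background correction 32 of the 76 calls held. The calls that did not, besides those of GSTA1, CYP2D25 and the 4 granulocyte genes, were ITIH4, C6, MBL1, OXCT1, IGFBP3, NR3C1, DIO1, SIGLEC1, LGALS3, SLA-3, TAP1, GBP1, RSAD2, IRF1, MX1 and OAS2. They further included CD3G, CD79A, HCST, TBXAS1, RGS5, COL5A1, ACE, VEGFA, CIDEC, CCL20, LEAP2, STEAP4 and SLC39A7 among the rises and SELP among the falls, with SLCO3A1, TLDC2, UPK2, TMEM255A, CRYBB1, KCNIP1, LHB and INHA.

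Runts over the same interval had 914 features higher (3.19%) and 1374 lower (4.79%) at day 70, among them 114 (7.14%) and 18 (1.13%) with a symbol. Of the 89 genes that rose in controls 87 had a change of the same sign in runts and 54 were called, and of the 30 that fell all had the same sign and 9 were called. The 54 make up 60.7% of the control rises and 47.4% of the runt rises, and the 9 make up 30% of the control falls and 50% of the runt falls. Runts and controls are separate arrays but littermates, so they are not independent in their mothers. The difference between the control change and the runt change reached an adjusted p under 0.05 in 0 of 28670 features in the limma fit, and 687 (2.4%) had an unadjusted p under 0.05. That share is below the 0.05 that chance alone would give, so the unadjusted p values below single out no gene. No gene is therefore shown to change differently in runts.

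CYP2C42 changed by 4.19 in controls and 5.09 in runts (runt adjusted p = 0.000319), and NR1I2 by 3.97 in controls. In runts NR1I2 was above background on 4 of 4 day 70 arrays and 0 of 4 day 50 arrays and was at least 17.5-fold higher (runt adjusted p = 4.04e-09), so its changes in controls and runts are not compared. NTN1 changed by 3.12 and 3.13, and NR3C1 by 1.02 and 1.09. SLA-DRA had 1.72 in controls and 2.12 in runts, CXCL10 2.11 and 3.01, and MX1 1.34 and 2.47, each called in both. In the granulocyte list the runt values were lower for the following genes, and none of them was called in runts. They were named for their control changes, a choice that favours larger values in controls than in runts. PR39 had 1.97 in controls and 0.80 in runts, LTF 1.95 and 0.90, PGLYRP1 1.77 and 0.81 and MMP9 1.76 and 0.75, and the unadjusted p of the differences ran from 0.103 to 0.253. Of 14 granulocyte genes 5 were called in controls and 1 in runts. In the complement list 2 of 23 were called in controls (median 0.46) and 12 of 23 in runts (median 1.24). Such counts of calls do not test a difference between controls and runts. MBL1 changed by 1.16 in controls and 2.32 in runts (difference -1.16, SE 0.42, unadjusted p = 0.0108).

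The control change of ALB was 0.07, with means of 7.65 at day 70 and 7.57 at day 50, while runts averaged 7.28 at day 70 and 4.85 at day 50, a rise of 2.43 (adjusted p = 0.0035). The difference of -2.36 (SE 0.83, unadjusted p = 0.00846) had an adjusted p of 1. The falls that follow were likewise named for their control values. KLRK1 changed by -2.45 in controls and -1.67 in runts and PDZK1IP1 by -2.72 and -2.14, called in both. SLCO3A1 changed by -2.52 in controls and -0.09 in runts (difference -2.43, SE 1.02, unadjusted p = 0.0247), HBE1 by -1.52 and -0.65, and CITED1 by -2.29 and -0.96 (difference -1.33, SE 0.6, unadjusted p = 0.0367).

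**Figure D4:**
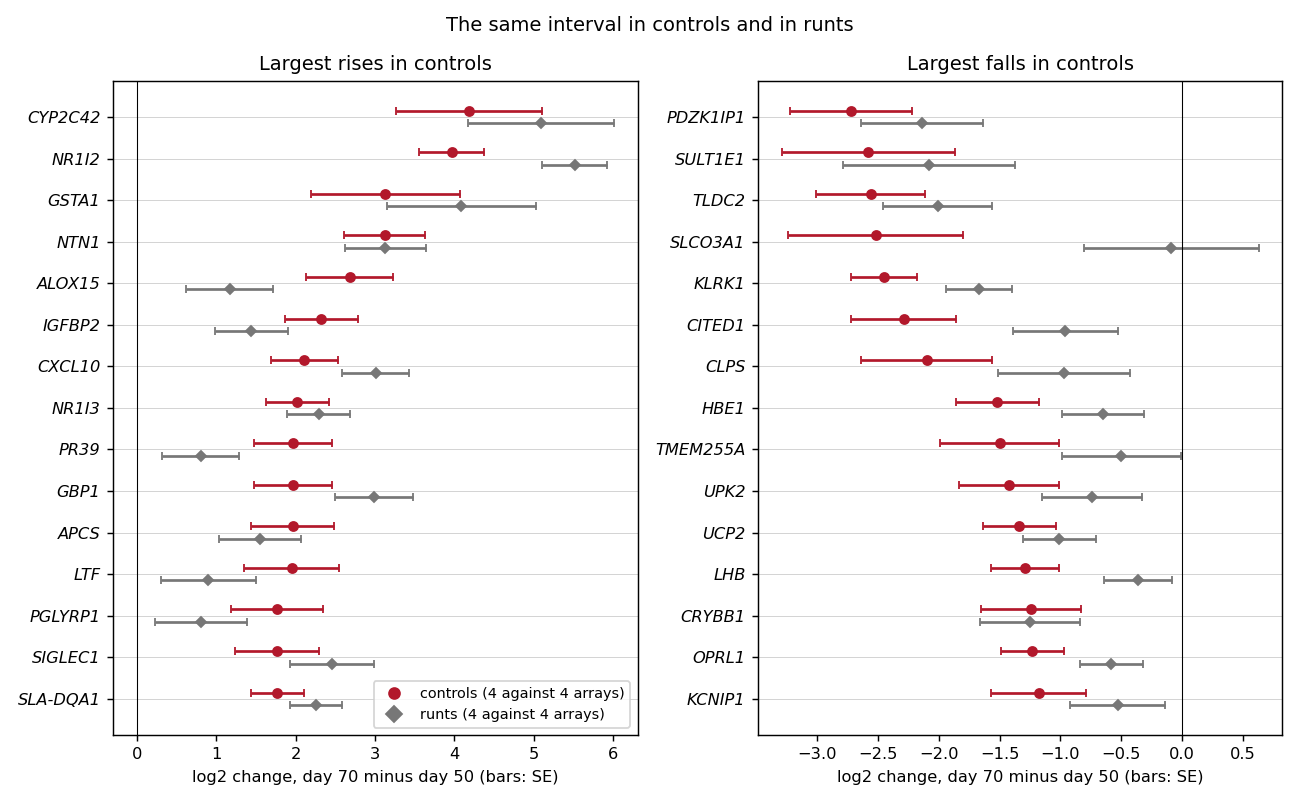
Log2 change, day 70 minus day 50 (x axis), with its standard error in controls (red circles, 4 against 4 arrays) and runts (grey diamonds, 4 against 4 arrays) for the 15 largest rises (left) and 15 largest falls (right) in controls. NR1I2 has 3.97 in controls, and its runt value is no measured size, since it was at background on all 4 runt day 50 arrays. SLCO3A1 has -2.52 in controls and -0.09 in runts. The genes were chosen by their control values, which favours larger changes in controls.

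The neighbouring intervals place these changes in the course of gestation. The intervals differ in length, shortest from day 37 to day 50 and longest from day 70 to day 110. Each change is a total over its interval and not a rate per day. Both neighbours share arrays with the interval studied, so values are set side by side, and the difference of changes was computed in the same fit. Many of the genes below were named for a large change from day 50 to day 70, and that change enters each difference. For such genes the adjusted p of a difference describes the course and is no separate test of a peak at day 70 or a turn at day 50. NR1I2 was above background on 0 of 4 control arrays at day 37, so its first step has no measured size. It averaged -3.91 at day 50, 0.06 at day 70 and 3.33 at day 110, and the steps of 3.97 and 3.27 did not differ past the threshold (adjusted p = 0.594). IGFBP2 averaged 2.02, 4.52, 6.83 and 7.97 on the same days. Other genes reached their highest mean at day 70. PR39 averaged 4.11, 5.17, 7.14 and 4.84, and its change of -2.31 after day 70 differed from the rise before it (adjusted p = 0.00225). LTF (-2.04 after day 70, adjusted p of the difference 0.0154), PGLYRP1 (-2.37, 0.0103), NCF1 (-0.94, 0.0346) and MMP9 (-1.25, 0.0426) had the same sign of difference, and so had CYP2C42 (-0.93, 0.0409), ALOX15 (-1.14, 0.0125), SERPINA7 (0.05, 0.00763) and CD79A (-1.18, 0.0146).

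For some genes the change from day 50 to day 70 differed from that before day 50. ITIH4 had -0.80 before day 50 and 1.01 after it (adjusted p of the difference 0.0085). NAGS had -0.65 and 0.94 (0.000268), SLA-2 -0.64 and 1.64 (0.00952), CD14 0.31 and 1.65 (0.0286), APCS -1.26 and 1.96 (0.0226), NR3C1 0.15 and 1.02 (0.0477) and PDZK1IP1 0.47 and -2.72 (0.0179), each as the change before day 50, the change after it and the adjusted p of the difference. UCP2 had 0.79 before day 50 and -1.34 after it (adjusted p of the difference 0.0096). HBE1 had -0.08 before day 50, -1.52 to day 70 and -4.64 from day 70 to day 110, and the last 2 steps differed (adjusted p = 0.00153). CCNB1 (-0.70 and then -3.07, adjusted p of the difference 0.000515) and EPOR (-0.84 and then -3.19, 0.00491) likewise had their larger step after day 70, over the longer interval. KLRK1 fell in the interval studied and changed by 0.18 after it (adjusted p of the difference 0.000938).

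**Figure D5:**
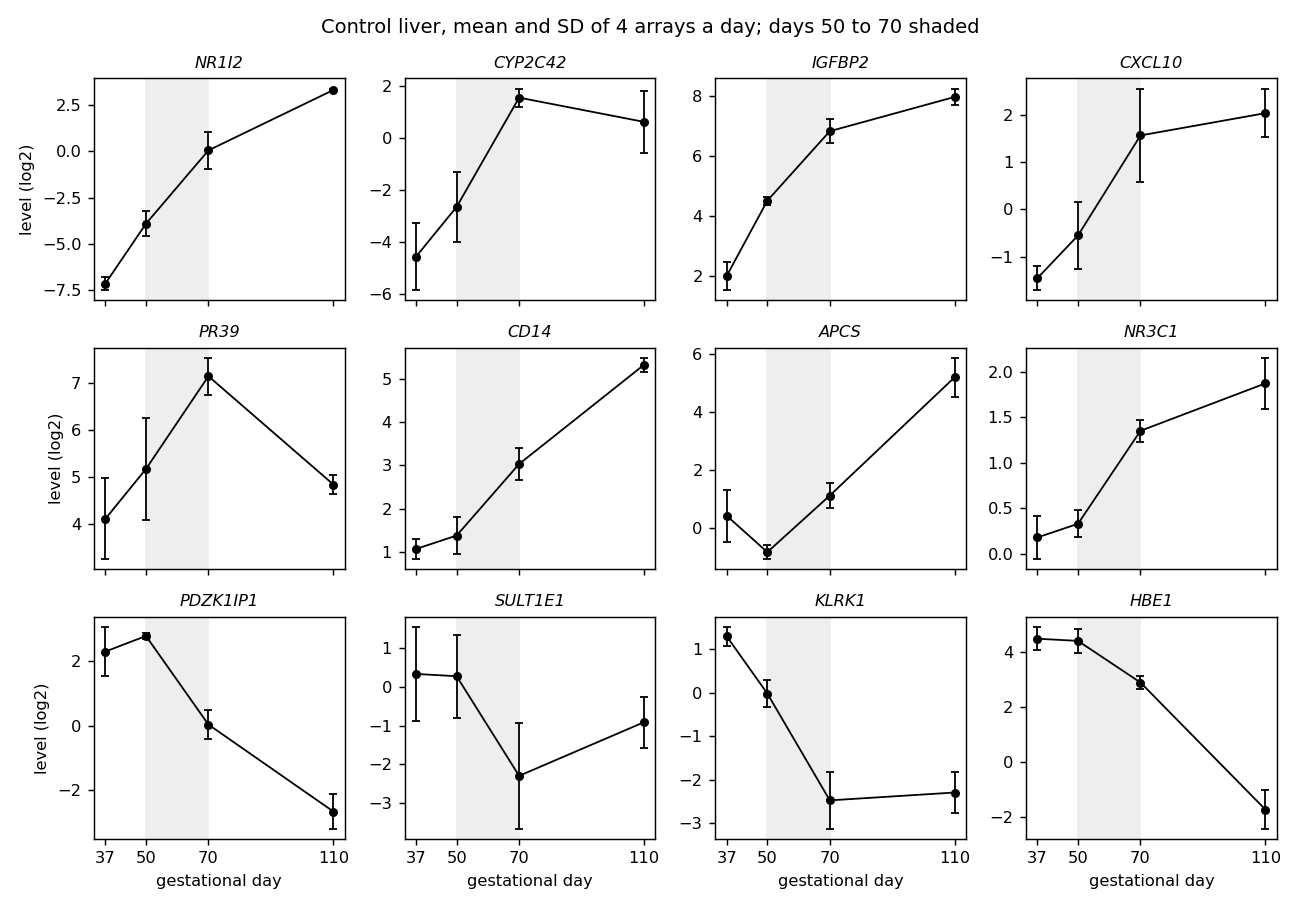
Mean level and SD of 4 control arrays (y axis, log2 signal minus the array's 75th percentile) at gestational days 37, 50, 70 and 110 (x axis) for 12 genes, with days 50 to 70 shaded. NR1I2 was at background on all 4 day 37 arrays and is higher at each later day, and PR39 has its highest mean at day 70. CD14 and NR3C1 change little before day 50, and HBE1 has its largest step after day 70, over the longest interval.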

How the data were processed

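Liver RNA of 32 pig fetuses was hybridised to 1-colour Agilent arrays. Per the file headers, scans were read with Feature Extraction 10.7.3.1, and the deposited processed signal is a fluorescence intensity after background subtraction. A further deposited table holds the authors' log2 values, whose array medians lie between 5.1479 and 5.1532. The submitters' processing notes name Partek without a version.

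Control spots and scanner outliers were left out. From the log2 of each intensity the array's 75th percentile was subtracted, and spots of a probe were averaged. Of 43603 probes, 2683 were named by matching RefSeq accessions without versions to the pig tables, giving 1904 symbols, and the others kept no name. A probe was tested when well above background on at least 3 of 4 arrays of any group, and the brightest probe stood for a symbol. "At least" folds use the background limit as the lower level. Columns of other samples numbered 0.

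In limma 3.58.1 (R 4.3.3), 8 group means were estimated from the 32 arrays together (24 residual degrees of freedom, two-sided, Benjamini-Hochberg over 28670 features). The script was tested on simulated data. Arrays of days 70 and 50 with the same replicate number had r = 0.355, 0.189, 0.405 and 0.155 between their deviations. Arrays with different numbers ran from -0.406 to 0.364, the highest being day 70 replicate 1 with day 50 replicate 2. All 4 same-numbered values were above 0 and most of the others were below it, with the exception named. Over the 32 arrays the estimated correlation between arrays of 1 slide was 0.199. With slide as a fixed block 925 features rose and 1780 fell in controls, and with slide as a random block 947 and 1721. For 3 of the 4 numbers the arrays share a slide, and the replicate number was tried as a block.

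The members and gene lists were chosen with earlier results of these data known, and the interferon list after its values were seen. Named by rule are the 15 largest non-overlapping rises and falls with the higher day above background on all 4 arrays, the called members of each list up to 6, and, where fewer than 2 were called, those with the smallest p. Other genes were named for context after their values were seen. Some genes that the rule names are not reported here. Alternatives covered background correction (normexp on the median signal, offset 50), normalization, filter, arrays in the fit, slide, block, call rule and each array left out.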

Additional observations from a re-analysis of the deposited data

Results flagged for a closer look

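In 256 groups of 4 arrays, a test for 1 array far from the other three picked out the values below. Chance picks out about 1 group in 20. No explanation was tested.

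At day 70, replicate 4 stood high in CD247 (0.79, against -1.19 to -1.13 on the other three) and STEAP4 (-2.01, against -2.72 to -2.64) and low in PLTP (-0.70, against 0.28 to 0.43), and it had 234 outlier spots, against 2 to 14. Replicate 2 stood low in CCNB1 (3.42, against 3.81 to 3.85) and KCNIP1 (-5.45, against -4.86 to -4.79), and replicate 3 high in F12 (6.81, against 6.22 to 6.24).

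At day 50, replicate 1 stood low in C6 (-7.49, against -4.90 to -4.49), OXCT1 (2.85, against 3.00 to 3.02) and CYP2E1 (-3.85, against 2.47 to 3.77) and high in PMAP-36 (3.19, against -6.96 to -5.34). Replicate 2 was low in CDK4 (4.18, against 4.49 to 4.50). Replicate 3 was low in LTF (2.47, against 4.74 to 4.91) and high in CYP4A21 (2.44, against -0.37 to -0.13) and PDZK1IP1 (2.91, against 2.69 to 2.73), and replicate 4 low in APOA1 (8.70, against 9.19 to 9.29).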

How the results depend on the processing

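Counts are of features higher and lower at day 70 than at day 50, set against 830 and 1366 in controls and 914 and 1374 in runts. In controls they were 278 and 163 with normexp, 1494 and 756 scaled to the array median, 5.4e+02 (rounded) and 485 among features above background on all 32 arrays, and 623 and 592 among those above it on the 8 arrays of the comparison, a filter chosen after seeing the data. They were 3579 and 3445 with no minimum fold, 310 and 192 within slides 4 to 9, and 1 and 0 within slides 1 to 3, where 7095 had an unadjusted p under 0.05 in limma. Quantile normalization gave 990 and 1105, of which 47.3% were higher. In runts, normexp gave 755 and 33, and the filter on all 32 arrays 566 and 570. Leaving out each array in turn gave 708 to 840 higher and 947 to 1901 lower in controls, the ends of the lower counts being without day 70 replicate 4 and without day 70 replicate 1, and 819 to 988 higher and 1143 to 1476 lower in runts. Fits of the 8 arrays of a comparison with a replicate block gave 821 and 1713 in controls, against 739 and 1253 in the same fit without it, and 780 and 1269 in runts. With a block and 8 arrays 8 of the 76 called genes named above lost their call, and 6 of these 8 also lost it in the unblocked fit of 8 arrays, which ended 11. The replicate block in the fit of 32 arrays, chosen after seeing the data, gave 849 and 1432, ended 0 of the 76 calls and added that of CYP4A21 (adjusted p = 0.01). The difference between controls and runts held 0 calls under all 8 settings tried. Of the 125 genes named, none changed sign as a called gene; 44 calls were lost with normexp, 7 with quantile normalization and 4 with median scaling. The causes of these shifts were not tested. Low signal limits the dim probes: 100 features called higher were at background on all 4 day 50 arrays, and 153 called lower on all 4 day 70 arrays.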
